A study of Homo sapiens with 40 samples.

Results

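The 8 genes described here encode the protein-conducting channel of the endoplasmic reticulum (ER) and proteins that work beside it: SEC61A1, SEC61A2, SEC61B, SEC61G, SEC62, SEC63, TRAM1 and SRPRB. They were taken by gene symbol from a deposited table of counts for 57992 genes, and each symbol matched 1 row. All 8 had enough reads to be fitted in every arm. They were selected on their measured levels in the inputs of the constructs and their enrichment over input, so these values are a description, given without p-values. Counts of members that the fits over all genes call in enrichment are printed beside the share of all genes called, and support nothing, since the choice used the same values. P-values are given for the members only where inputs with and without a thionucleoside are compared.

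Proteins bound for secretion or for membranes enter the ER through the SEC61 channel. The signal recognition particle brings the ribosome and the growing chain to its receptor, whose membrane subunit is SRPRB, and the chain is then passed to a channel of 3 subunits: the pore-forming alpha subunit (SEC61A1, or its paralogue SEC61A2) and the small tail-anchored subunits beta (SEC61B) and gamma (SEC61G). SEC62 and SEC63 serve chains that are imported after their synthesis, with SEC63 recruiting the luminal chaperone BiP. TRAM1 is a membrane protein that lies next to the channel and takes part in the entry of some chains. The mRNAs of most multi-pass membrane proteins, a class that leaves out the tail-anchored SEC61B and SEC61G, are themselves translated at the ER.

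The cells were HEK293T, an established human embryonic kidney line, and expressed the peroxidase APEX2 aimed at 1 of 4 places: the mitochondrial matrix (MITO), the ER membrane (ERM), the cytosol (NES) or the nuclear lamina (LMNB1). APEX2 turns biotin-phenol and peroxide into a radical that puts biotin on nearby molecules, and RNA was sequenced before (input) and after (enriched) capture on streptavidin. In the s6G arms of all 4 constructs and the s4U arm of MITO, 6-thioguanosine or 4-thiouridine was present at 100 uM for 5 h. Biotin-phenol at 0.5 mM was added 30 min before the end, and labelling was started by peroxide at 1 mM, which lasted 1 min. MITO and LMNB1 also had APEX-only arms, made without a thionucleoside, and unlabelled arms, which got peroxide alone and no biotin-phenol either. This gave 9 arms and 40 libraries from polyA RNA, with 4 biological replicates per ERM group and 2 per other group. No arm without a thionucleoside exists among the ERM and NES libraries used here, and the labels do not give the sequence of any construct or say whether a line was 1 clone.

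Libraries held 123341 to 14496768 counts, with the 4 unlabelled enriched libraries at 123341 to 3876715. ERM numbers 1 and 2 held 5342584 to 6664875 counts and numbers 3 and 4 12382757 to 14496768. The ERM replicates formed 2 sets. Chi-square per degree of freedom between 2 libraries, larger when less alike, was 2.98 for inputs 1 and 2 and 4.82 for 3 and 4. It was 11.9 to 20.1 across the sets. In enriched libraries it was 5.73 and 5.43 against 11.6 to 23.7. The ERM fits treat the 4 as independent. LMNB1 stood at 2010 to 5540 CPM (counts scaled to library size) in the 12 libraries of its construct and at 107 to 331 in the 28 others. Mitochondrial mRNAs took 23 to 48.5% of the counts in the 6 labelled enriched MITO libraries and 2.87 to 6.79% in inputs. Markers of blood, liver, epidermis and muscle stayed at 13.9 CPM or below, while the epithelial markers KRT8 (4.75 to 51.3 CPM), KRT18 (0 to 45.1) and EPCAM (0 to 4.12) were also low. The characteristics of 4 enriched ERM and 4 LMNB1 libraries name s4U where titles and design name s6G. Their level of the stress gene ATF3, chosen after its values were seen, was 176 to 208 CPM in the LMNB1 inputs concerned, against 38.2 to 47.6 in MITO s4U inputs and 236 to 275 in MITO s6G inputs. In the enriched libraries it was 839 to 964 CPM in ERM and 200 to 205 in LMNB1, against 61.2 to 108 in MITO s4U and 505 to 576 in MITO s6G.

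The genes lie apart in the genome. In RefSeq's annotation of GRCh38.p14, SEC61A1 (ENSG00000058262), SEC62 (ENSG00000008952) and SRPRB (ENSG00000144867) are on chromosome 3, at 128051641 to 128071683, 169966807 to 169998373 and 133784023 to 133828574. SEC61A2 (ENSG00000065665) is on chromosome 10 at 12129641 to 12169958, and SEC61B (ENSG00000106803) on chromosome 9 at 99222282 to 99230615. SEC61G (ENSG00000132432) is on chromosome 7 at 54752253 to 54759211, and SEC63 (ENSG00000025796) on chromosome 6 at 107867756 to 107958208, and the table's ID of TRAM1 is ENSG00000067167.

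RefSeq promoters of 300 bases (250 before the start and 50 from it) were at hand for 7 of the members, in 9 entries. They were searched on both strands for TGACGTG, the core of the element through which the unfolded protein response acts, because SEC61 genes are textbook targets of that response. The windows of 30 bases with a match are shown, with the match in capitals.
SEC61A1, chr3:128052425-128052454, plus strand of the gene, across its second annotated start: cgggctagcacTGACGTGtctctcggcgga
SEC62, chr3:169966780-169966809, match on the reverse strand, just before the start: cctcctcgctcCACGTCAgagggaaccggg
This motif was found for 2 of the members and in 1.97% of all 35116 promoters. The shorter CCACG was found for 6 members and in 38.1% of promoters, and in SEC62 1 of its matches overlaps the element shown. CCAAT was found for 2 members and in 34.6% of promoters, and the joint form, CCAAT and CCACG spaced by 9 bases of any kind, for 0 members and in 0.0769% of promoters.

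Levels of different genes can be compared only per length, for which the authors deposited TPM values, which correct for transcript length and depth, of the MITO arms. Each column summed to 2000000 after undoing the log, where TPM of 1 library sum to 1000000, so the authors' values were scaled to 1000000. How their replicates were combined is not given in the sources used here. The values carry no error and are given as the median and range over the 4 MITO inputs. SEC61A1 was the highest at 109 TPM (83.3 to 114), and its paralogue SEC61A2 the lowest at 7 TPM (5.41 to 7.19). The small channel subunits followed SEC61A1, with SEC61B at 90 TPM (79.1 to 98.5), overlapping it, and SEC61G at 73.6 TPM (61.2 to 74.9), below SEC61B in all 4. TRAM1 stood at 30.1 TPM (23.7 to 34.6), SEC62 at 25.4 (18.7 to 30.8) and SRPRB at 19.5 (16.5 to 21.9), each overlapping the next, and SEC63 at 10.9 (8.93 to 13.2). In these inputs the alpha subunit mRNA was thus nearly all SEC61A1, as far as reads shared by the 2 paralogues were counted with the right one, which the sources used here do not state.

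SEC61B was the member that set 1 construct apart. With all 40 libraries on 1 scale, the ERM inputs held 1340, 1250, 1690 and 1620 CPM. The 2 NES inputs held 130 and 147 CPM, the LMNB1 s6G inputs 140 and 118, and the MITO s6G inputs 113 and 131. The lowest ERM input was 8.50 times the highest of the 16 other inputs (7.90 times with scaling to total counts). Enriched ERM libraries went further, to 2420, 2650, 3240 and 3080 CPM, while the 32 libraries of other constructs, enriched or input, spanned 61.2 to 166 CPM. Since the sequence of the ERM construct is not given in the sources used here, reads of the SEC61B gene and reads of a construct that carries part of it cannot be told apart in any SEC61B value from ERM libraries below.

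**Figure D1:**
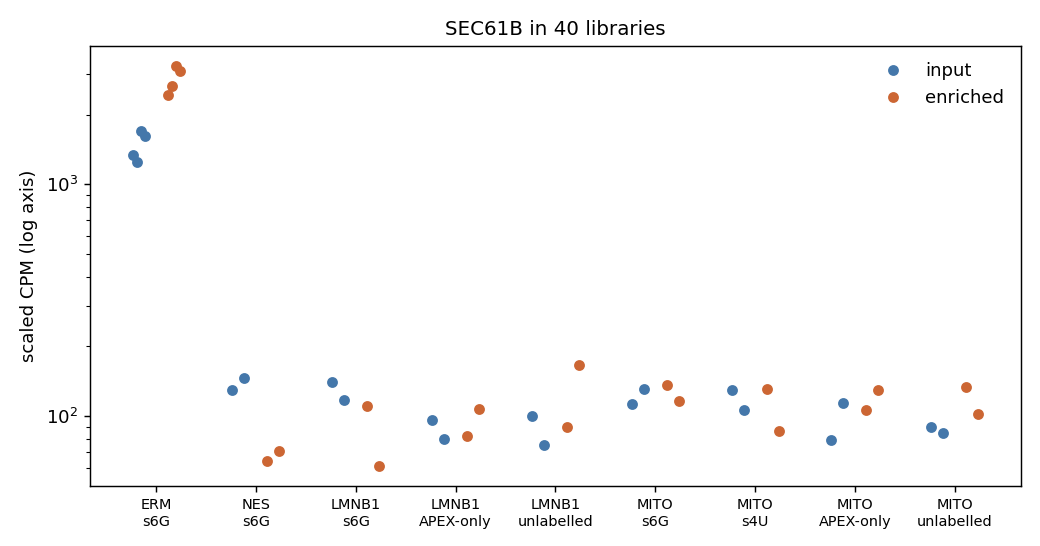
SEC61B in 40 libraries, as CPM on a log axis scaled over all libraries, with 1 point per library, inputs in blue and enriched libraries in orange. The 8 ERM libraries sit between 1250 and 3240 CPM and all others between 61.2 and 166.

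For each of the other 7 members, the s6G inputs of all constructs lay within 3-fold of each other. TRAM1 had 247, 250, 288 and 289 CPM in ERM inputs, above NES (189 and 166), LMNB1 (198 and 170) and MITO (151 and 119). The ERM inputs did not overlap those of the other constructs, also with scaling to total counts, where they ran from 210 to 218 against 125 to 181. NES and LMNB1 overlapped each other. SEC63 had 178, 198, 244 and 222 CPM in ERM and 187 and 184 in NES inputs, all above LMNB1 (130 and 130) and MITO (137 and 126). SEC61A2 was highest in NES, at 78.0 and 65.0 CPM, against 48.3 to 60.5 in ERM, 35.3 and 45.9 in LMNB1 and 32.4 and 61.9 in MITO. SEC61A1 (372 to 460 CPM in ERM, 208 to 399 in the other constructs), SEC62 (118 to 171 and 86.4 to 161) and SRPRB (130 to 172 and 72.8 to 160) overlapped between ERM and others. SEC61G ranged from 112 to 201 CPM in ERM and from 86.4 to 114 elsewhere. Its ERM numbers 3 and 4 (187 and 201) were above numbers 1 and 2 (112 and 120), which had fewer reads. How many of all genes separate the inputs of the constructs in these ways was not counted. Each construct has its own libraries and the labels give no preparation batch, so construct and batch cannot be told apart. Scaling to total counts lowered the ERM means of 7 members by more than their SD (SEC61A1 from 418 to 334 CPM), and that of SEC61G from 155 to 122.

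Around the ER membrane construct, the members split after enrichment. SEC61B, SEC62 and SRPRB were higher in enriched than input libraries, SEC61G, SEC63, TRAM1 and SEC61A2 were lower, and SEC61A1 stayed close to its input. In edgeR's quasi-likelihood fit 3 members were called higher and 4 lower at an adjusted p of 0.05, where 34.3% of the 15619 tested genes were called higher and 28.9% lower. The members' median log2 fold change was -0.24 (range -1.98 to 1.07; -0.66 over the 7 without SEC61B), and that of all tested genes 0.11. With scaling to total counts, the median of all genes was 0.43, 67.9% instead of 54.3% of calls were higher, and SEC61A1 was called higher too.

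Values below are CPM scaled within each fit, in the order of replicate numbers, and fold changes are log2 of enriched over input with their standard error (SE). Groups without overlap were common among all 15619 genes tested in ERM and NES. In ERM, 30.7% had all enriched libraries above all inputs and 26% had them below. In NES, with 2 libraries per group, these shares were 40.1% and 39.5%. SEC61A1, the main pore subunit, had 349, 339, 393 and 412 CPM in ERM inputs and 421, 396, 433 and 457 in enriched libraries. The groups overlapped, though each enriched library was above its own input, and the fold change was 0.19 ± 0.11 (n = 4). It ran from 0.10 with another scaling (RLE) to 0.51 with total counts, and it was called with the replicate block (0.20). In the NES arm, SEC61A1 had 379 and 299 CPM before and 230 and 207 after enrichment, with no overlap and a fold change of -0.64 ± 0.16 (n = 2).

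SEC61A2 had 54.5, 47.8, 48.1 and 43.3 CPM in ERM inputs and 25.4, 31.5, 33.6 and 31.3 after enrichment. All enriched libraries were below all inputs, by -0.66 ± 0.12. In the NES arm it went from 74.2 and 61.7 to 31.2 and 26.3 CPM, by -1.24 ± 0.18. The lesser paralogue was thus below its input in both arms.

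SEC61B had 1210, 1140, 1460 and 1450 CPM in ERM inputs and 2320, 2560, 3190 and 2970 in enriched libraries, or 1.07 ± 0.13. In the NES arm, which lacks the ERM construct, it went the other way, from 124 and 140 CPM to 64.0 and 69.8, or -0.98 ± 0.19. Neither pair of groups overlapped.

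SEC61G, the shortest of the channel subunits, had the lowest fold change of the members in the ERM arm. It had 101, 109, 162 and 180 CPM in inputs and 27.5, 39.6, 35 and 37.4 in enriched libraries, a fold change of -1.98 ± 0.17, with only 1.20% of all genes below it. Numbers 1 and 2 differed by -1.87 and -1.47 and numbers 3 and 4 by -2.21 and -2.27, and the enriched libraries of the 2 sets overlapped while the inputs did not. In the NES arm it went from 108 and 94.4 to 46.6 and 37.6 CPM, by -1.26 ± 0.25.

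The SEC62 and SEC63 partners moved in opposite directions. SEC62 had 106, 122, 142 and 154 CPM in ERM inputs and 221, 284, 260 and 268 after enrichment, or 0.98 ± 0.12, and in the NES arm 121 and 108 became 231 and 210, or 0.94 ± 0.17. SEC63 had 160, 181, 211 and 199 CPM in ERM inputs and 91.6, 103, 95.3 and 85.0 after enrichment, or -1.01 ± 0.11. In the NES arm it went from 177 and 175 to 74.7 and 79.1 CPM, or -1.19 ± 0.15. For both genes the groups were fully apart in both arms.

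TRAM1 had 223, 228, 249 and 259 CPM in ERM inputs and 122, 147, 127 and 106 after enrichment, or -0.94 ± 0.11, and in the NES arm 180 and 158 became 82.1 and 92.7, or -0.95 ± 0.16. SRPRB, the membrane subunit of the targeting receptor, had 131, 119, 148 and 154 CPM in ERM inputs and 216, 252, 260 and 267 in enriched libraries. The fold change was 0.85 ± 0.11, and 0.44 ± 0.16 in the NES arm, where 109 and 108 CPM became 160 and 134. TRAM1 was below and SRPRB above its inputs in every library of both arms. In the NES arm 2 members were called higher and 6 lower, against 28.7% and 26.4% of all genes. Their median was -0.96, and that of all genes 0.01.

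**Figure D2:**
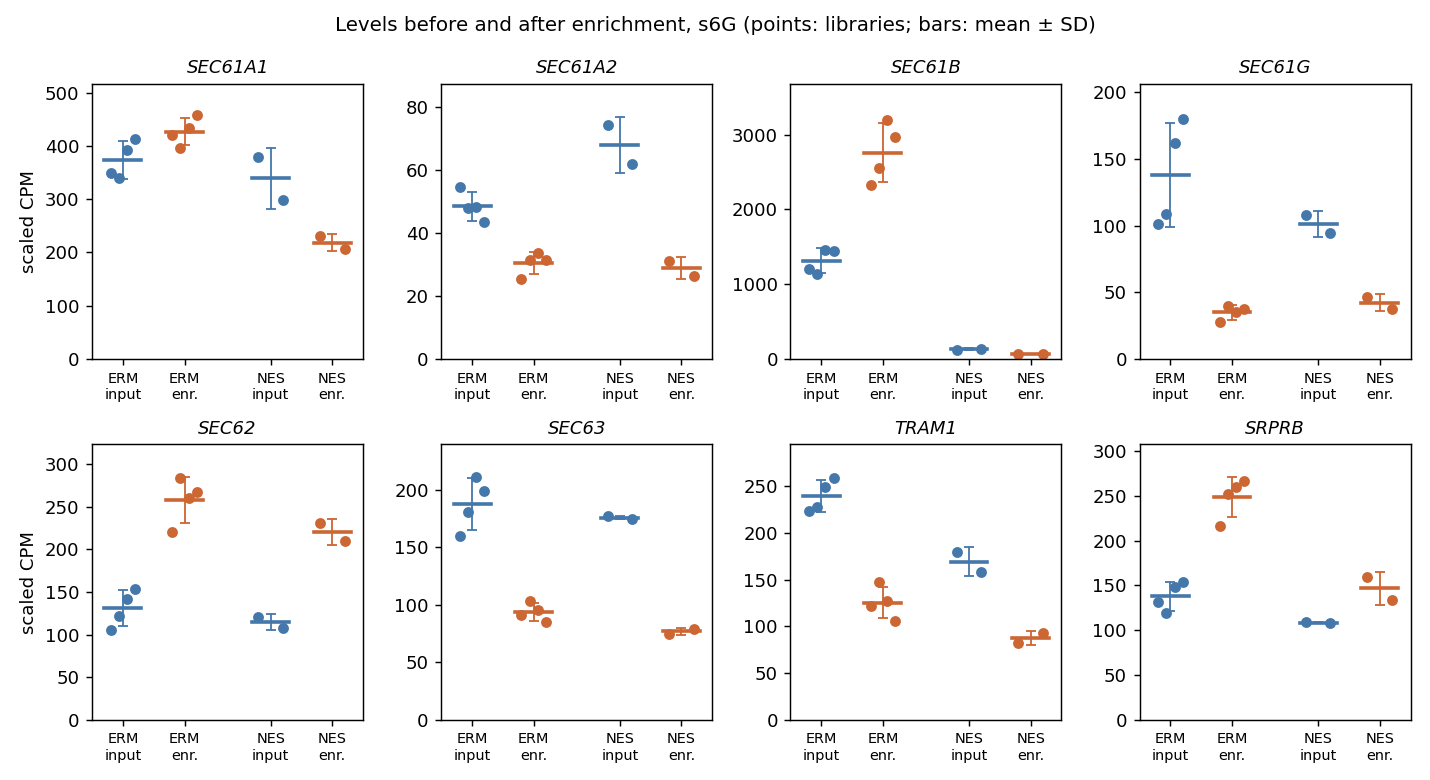
Scaled CPM of the 8 members in inputs (blue) and enriched libraries (orange) of the ERM (4 per group) and NES (2 per group) s6G arms, with points for libraries and bars for mean ± SD. SEC62 and SRPRB sit above their inputs and SEC61G, SEC63 and TRAM1 below them in both arms, while SEC61A1 is near its input in ERM (427 against 373 CPM) and below it in NES (218 against 339).

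The NES arm was enriched with the same thionucleoside, and the difference between the 2 log2 fold changes was fitted as an interaction. For the members, the values, intervals and calls of this fit are a description and not a test, since the members were chosen with enrichment known. ERM minus NES was 2.04 ± 0.23 for SEC61B, 0.83 ± 0.19 for SEC61A1, 0.58 ± 0.22 for SEC61A2 and 0.41 ± 0.19 for SRPRB. It was -0.72 ± 0.30 for SEC61G. SEC63 (0.19 ± 0.19), SEC62 (0.03 ± 0.21, 95% interval -0.41 to 0.48) and TRAM1 (0.01 ± 0.19, -0.40 to 0.42) had differences of about their SE or less. SEC61B was the 1 gene called in this comparison, 0.0064% of the genes tested, and 2167 genes had an unadjusted p under 0.05. DESeq2 called 472 genes and 2 members, and the fit with the replicate block 952 genes and 3 members: SEC61B and SEC61A1 higher and SEC61G lower. Without enriched NES replicate 1 or NES input replicate 2 no member was called, though SEC61B still differed by 1.98 and 1.88. With ERM numbers 1 and 2 alone the difference was 2.06 for SEC61B and 0.92 for SEC61A1, and with numbers 3 and 4 alone 2.06 and 0.78.

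The authors' deposited table of ERM over NES, whose log2 values do not take the inputs into account as far as its columns show, gives 5.40 for SEC61B, 1.01 for SEC61A1, 0.80 for SRPRB and 0.56 for TRAM1. It gives 0.13 for SEC61A2, 0.27 for SEC62, 0.32 for SEC63 and -0.23 for SEC61G. In the authors' deposited table, SEC61B is thus also the member farthest from 0.

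At the nuclear lamina, TRAM1 had the lowest fold change of the members in the s6G arm. It had 203 and 174 CPM in the LMNB1 s6G inputs and 40.8 and 38.8 after enrichment, a fold change of -2.24 ± 0.25 (n = 2), with only 0.5% of all genes below it. In the APEX-only arm of the same construct, enriched libraries had 178 and 118 CPM and inputs 170 and 150, overlapping, or -0.11 ± 0.24. In the unlabelled arm, 198 and 137 CPM became 91.2 and 103, or -0.78 ± 0.24. The s6G change minus the APEX-only change was -2.13 ± 0.34, and minus the unlabelled change -1.46 ± 0.34. Both are a description and not a test, since the members were chosen with enrichment known. The authors' deposited table gives -2.41 for TRAM1 in the s6G arm and -0.15 in the APEX-only arm.

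Of the channel, SEC61G had 102 and 88.4 CPM in LMNB1 s6G inputs and 54.1 and 41.3 after enrichment, or -0.99 ± 0.32. The groups did not overlap, as for 26.5% of all tested genes in this direction. In the APEX-only arm SEC61G went from 71.0 and 66.8 to 74.6 and 96.8 CPM, or 0.32 ± 0.32. Its s6G change minus the APEX-only change was -1.31 ± 0.45, and minus the unlabelled change -2.16 ± 0.45, the latter farther from 0 than that of TRAM1. SEC61B (-0.47 ± 0.30), SEC61A1 (-0.40 ± 0.25) and SRPRB (-0.60 ± 0.36) were lower by less than 2 SE of the fit without pairing. Both pairs were lower for SEC61B (-0.25 and -0.79), SEC61A1 (-0.38 and -0.44) and SRPRB (-0.58 and -0.63). SEC61A2 (0.07 ± 0.26), SEC62 (-0.07 ± 0.31) and SEC63 (-0.13 ± 0.19) were within 1 SE of no change. In this arm 0 members were called higher and 1 lower, TRAM1, against 5.37% and 7.64% of 16525 genes. The replicate block called 3 lower, TRAM1, SEC61G and SRPRB, where it called 1380 of all genes higher and 1746 lower. Total-count scaling moved the median of all genes from 0.13 to 0.35 and the share of higher calls from 41.3% to 63.7%, and TRAM1 to -2.03.

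In the mitochondrial matrix arms the members varied more between replicates. SEC63 had 127 and 116 CPM in MITO s6G inputs and 262 and 215 after enrichment, or 0.97 ± 0.30. It was also higher in the s4U (0.62 ± 0.30) and APEX-only arms (0.89 ± 0.30), and the groups did not overlap in any of the 3. Enriched libraries were above inputs without overlap for 19% of all tested genes with s6G, 17.3% with s4U and 20.7% in the APEX-only arm. SEC62 followed, at 0.74 ± 0.41, 0.87 ± 0.41 and 0.56 ± 0.41 in the same order. TRAM1 was lower, from 140 and 110 CPM to 78.8 and 43.9 with s6G, or -1.01 ± 0.41, with -0.44 ± 0.40 in the s4U and -0.87 ± 0.40 in the APEX-only arm. SEC61A1 (-0.20 ± 0.49), SEC61A2 (-0.23 ± 0.46), SEC61B (0.13 ± 0.28), SEC61G (0.34 ± 0.30) and SRPRB (0.22 ± 0.64) had changes near or under their SE with s6G. These SE come from the fit without pairing. The pairs of SEC61A1 (-0.15 and -0.29), SEC61G (0.17 and 0.48) and SRPRB (0.16 and 0.32) kept their sign, and those of SEC61A2 and SEC61B did not.

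In the MITO s6G arm 0 members were called by edgeR, against 0.29% of 15151 genes higher and 0.0264% lower. DESeq2 called 1 member and 600 genes. The replicate block called 1033 genes and 3 members: SEC62 and SEC63 higher and TRAM1 lower. Mitochondrial mRNAs took up to 48.5% of the enriched counts in these arms, and the values moved with the scaling. With total counts the median of all genes moved from 0.01 to -0.87, the share of higher calls from 91.7% to 1.35%, and SEC61B (0.13 to -0.75), SEC61G (0.34 to -0.59), SEC62 (0.74 to -0.11) and SRPRB (0.22 to -0.58) changed sign. SEC63 was still positive, at 0.11, and TRAM1 at -1.83. Relative to the median of all genes, SEC63 was high and TRAM1 low with either scaling.

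**Figure D3:**
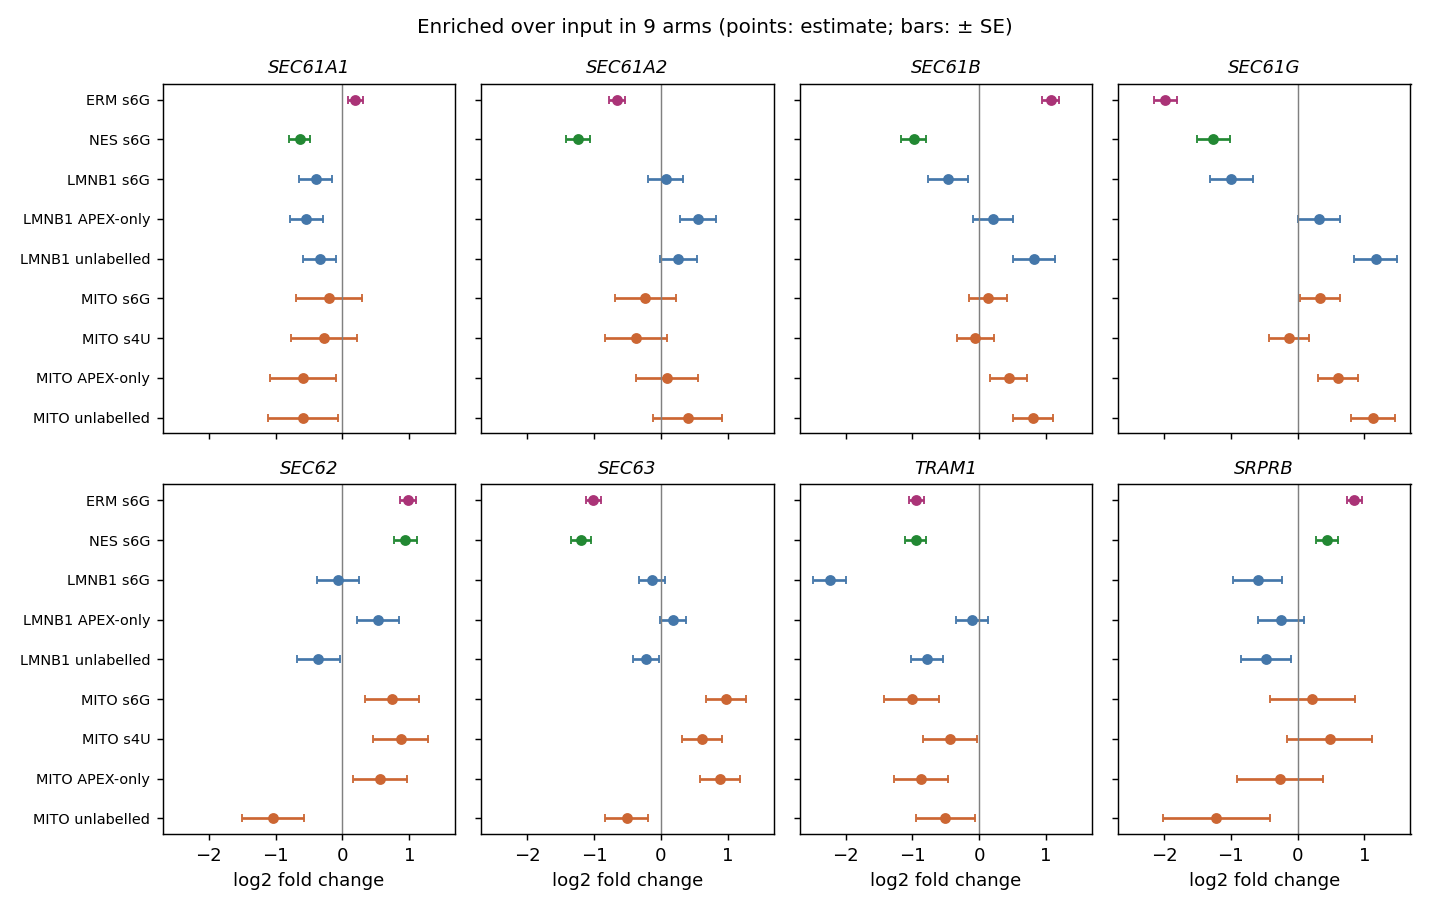
Log2 fold change of enriched over input ± SE for each member in the 9 arms, from 3 edgeR fits, with ERM in purple, NES in green, LMNB1 in blue and MITO in orange. TRAM1 lies at or below 0 in all 9 arms and lowest with LMNB1 s6G (-2.24), and SEC61G runs from -1.98 with ERM s6G to 1.17 in unlabelled LMNB1.

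In the unlabelled arms, which got no biotin-phenol, the 2 small channel subunits were above their inputs: SEC61G by 1.13 ± 0.33 in MITO and 1.17 ± 0.32 in LMNB1, and SEC61B by 0.81 ± 0.30 and 0.82 ± 0.31. SEC61G had 64.7 and 48.8 CPM in the MITO inputs and 159 and 102 after capture, and in LMNB1 74.4 and 58.9 became 91.2 and 204. The groups were apart in both, but the LMNB1 pairs differed by 0.29 and 1.79. Of all tested genes, 18.4% in MITO and 16.1% in LMNB1 were above their inputs without overlap. SEC62 (-1.04 ± 0.47 and -0.36 ± 0.32), TRAM1 (-0.51 ± 0.44 and -0.78 ± 0.24) and SRPRB (-1.22 ± 0.80 and -0.47 ± 0.37) were below their inputs. So were SEC61A1 (-0.59 ± 0.53 and -0.34 ± 0.25) and SEC63 (-0.51 ± 0.32 and -0.22 ± 0.19). Among these, groups were apart only for SEC62 and SEC63 in MITO and TRAM1 in LMNB1. In this direction 30% of all tested genes in MITO and 20.9% in LMNB1 were apart. The MITO values rest on few reads, since unlabelled enriched replicate 1 held 0 reads of SEC61A2, 10 of SEC62, 18 of SRPRB and 29 of SEC61G.

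Whether the thionucleoside itself shifted the members in whole cells was tested by comparing inputs with APEX-only inputs, with p adjusted over all genes. In the fit without a replicate block, no member passed in any of the 3 comparisons. There edgeR called 0 members in MITO s6G inputs (0.0528% of genes called), 0 in MITO s4U inputs (0% called, 583 genes with an unadjusted p under 0.05, DESeq2 53) and 0 in LMNB1 s6G inputs (0.127% called). With an unadjusted p under 0.05 there were 0, 0 and 1 members, and DESeq2 called 0 members in each. The member was SEC61A2, with 36.0 and 46.9 CPM in LMNB1 s6G inputs against 22.4 and 24.3 in APEX-only inputs, higher by 0.83 ± 0.27 (edgeR adjusted p = 0.261). It was also higher in MITO s6G inputs, 30.0 and 57.1 CPM against 30.5 and 29.5, but with overlap, by 0.54 ± 0.45 (adjusted p = 0.819 in edgeR). A fit with a replicate block on numbers called SEC61A2, SEC61B, SEC61G and TRAM1 higher in the LMNB1 s6G inputs, and no member in MITO. That fit also called many other genes in LMNB1, as given near the end, so the LMNB1 outcome depended on the block.

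SEC61B (0.49 ± 0.30, edgeR adjusted p = 0.589) and SEC61G (0.46 ± 0.32, adjusted p = 0.631) came next in the LMNB1 inputs, and in the MITO s6G inputs they stood at 0.37 ± 0.28 (edgeR adjusted p = 0.786) and 0.48 ± 0.30 (adjusted p = 0.722). SEC61A1 was -0.01 ± 0.49 in MITO s6G (95% interval -1.05 to 1.03), 0.14 ± 0.49 in MITO s4U and -0.03 ± 0.24 in LMNB1 s6G inputs (-0.56 to 0.49). The replicates of the MITO inputs lay far apart. SRPRB had 141 and 67.2 CPM in the MITO s6G inputs and 58.3 and 110 in the APEX-only inputs, and SEC61A1 312 and 192 against 178 and 328. Number 1 was above number 2 for both genes in the s6G, s4U and unlabelled inputs, and below it in the APEX-only inputs.

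**Figure D4:**
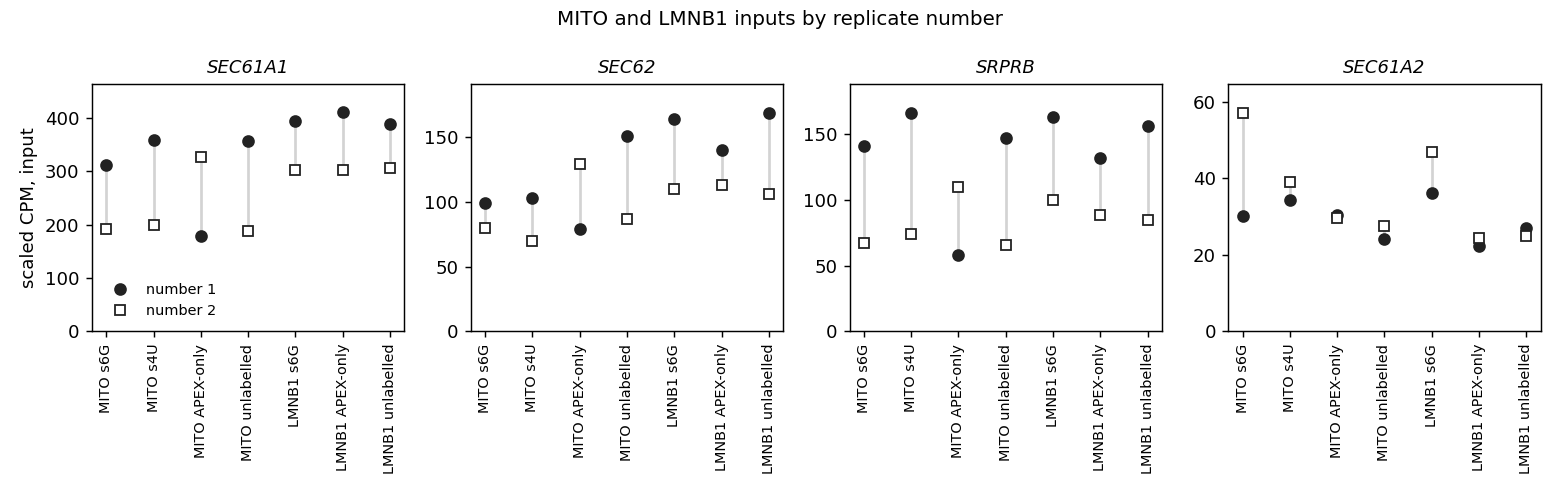
Scaled CPM of SEC61A1, SEC62, SRPRB and SEC61A2 in the MITO and LMNB1 inputs, with filled circles for replicate number 1 and open squares for number 2. For SEC61A1, SEC62 and SRPRB number 1 is the higher in all arms but MITO APEX-only, while SEC61A2 is higher in s6G inputs (36.0 and 46.9 CPM in LMNB1) than in LMNB1 APEX-only inputs (22.4 and 24.3).

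Around the members, 76 other genes of ER targeting, translocation and early folding were followed in 10 lists, of which 75 could be tested (HYOU1 had almost no reads). In the ERM s6G arm 17 rose and 35 fell after enrichment, with a median of -0.30, where 34.3% of all tested genes were called higher and 28.9% lower and their median was 0.11. In the NES s6G arm 15 rose and 37 fell (median -0.55), against 28.7% and 26.4% of all genes (median 0.01). In the LMNB1 s6G arm 0 rose and 20 fell (median -0.50), against 5.37% and 7.64% (median 0.13). These shares are the background for each list below, and whether a list differs from them was not tested. Without enriched LMNB1 s6G replicate 2 this count was 5, and without LMNB1 s6G input replicate 1 it was 11. Total-count scaling gave 28 higher and 30 lower in ERM. No gene of the lists was called by edgeR for ERM minus NES, where 20 had an unadjusted p under 0.05, while DESeq2 called 6 higher and 1 lower and the replicate block 15 higher and 2 lower. In MITO s6G enrichment edgeR called 0 as well, where 12 had an unadjusted p under 0.05, and DESeq2 called 3 higher and 1 lower. Total-count scaling called 0 higher and 29 lower there, and the replicate block 5 and 5.

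The oligosaccharyltransferase, which adds sugar chains to polypeptides as they leave the channel, was the list that moved most uniformly. All 12 subunits fell in the ERM arm (median -0.97), and all 12 in the NES arm (median -1.33), in edgeR, in DESeq2 and with total-count scaling. The lowest in ERM were the small subunits TMEM258 (-2.05 ± 0.15, edgeR adjusted p = 2.44e-09) and OST4 (-1.95 ± 0.29, adjusted p = 5.74e-05). In NES they were KRTCAP2 (-2.55 ± 0.41, edgeR adjusted p = 3.98e-05) and OST4 (-1.65 ± 0.43, adjusted p = 0.00515). In the LMNB1 s6G arm 8 of 12 fell, led by RPN1 (-1.57 ± 0.21, edgeR adjusted p = 0.00091) and MAGT1 (-1.40 ± 0.25, adjusted p = 0.00333), and 2 without enriched replicate 2.

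Of the signal recognition particle and the alpha subunit of its receptor, 0 rose and 4 of 7 fell in ERM and 5 in NES. SRP72, a protein of the particle, fell, at -1.24 ± 0.11 in ERM and -1.11 ± 0.15 in NES (edgeR adjusted p = 1.23e-08 and 5.98e-06). SRP9 fell in ERM (-1.28 ± 0.15, adjusted p = 3.80e-07) and SRPRA, the partner of SRPRB in the receptor, in NES (-0.79 ± 0.18, adjusted p = 0.000979). In the LMNB1 arm 1 fell, SRP9 (-1.33 ± 0.33, edgeR adjusted p = 0.0197). SRPRB itself, as given above, was above its inputs in ERM and NES.

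The list of TRAM1 relatives and other translocation genes was not uniform. TRAM2 rose by 1.19 ± 0.14 in ERM and 0.96 ± 0.20 in NES (edgeR adjusted p = 4.4e-07 and 0.000544), as did TRAM1L1, by 1.44 ± 0.44 and 1.96 ± 0.78 (edgeR adjusted p = 0.00787 and 0.039). SND1 stands on the list by its name, but the human gene encodes a nuclease of the Tudor family and shares only the name of a yeast targeting factor. It is among the falls counted above in all 3 arms. SND1 fell, at -1.74 ± 0.12 and -1.70 ± 0.17 (edgeR adjusted p = 1.38e-09 and 2.29e-07). In LMNB1 1 of the 4 fell, SND1 (-1.14 ± 0.18, edgeR adjusted p = 0.00172). Of the TRAP complex, which binds the channel, SSR4 fell, at -1.93 ± 0.20 in ERM and -1.94 ± 0.28 in NES (edgeR adjusted p = 2.42e-07 and 2.34e-05), SSR2 fell in both (-0.76 ± 0.12 and -0.89 ± 0.18, edgeR adjusted p = 3.07e-05 and 0.000335), SSR1 rose in ERM (0.60 ± 0.10, adjusted p = 3.31e-05), and SSR3 fell in LMNB1 (-1.34 ± 0.26, adjusted p = 0.00603).

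Signal peptidase, which cuts the targeting sequence, had 1 of 5 higher and 4 lower in ERM, 0 and 3 in NES and 0 and 2 in LMNB1. SPCS1 was lowest in each, at -1.16 ± 0.13, -1.30 ± 0.18 and -1.28 ± 0.24 (edgeR adjusted p = 1.87e-07, 7.95e-06 and 0.00435). SEC11C fell in ERM and NES (-0.87 ± 0.16 and -0.84 ± 0.23, edgeR adjusted p = 0.000103 and 0.005). SPCS3 rose in ERM (0.39 ± 0.14, edgeR adjusted p = 0.0244) and fell in LMNB1 (-0.92 ± 0.26, adjusted p = 0.0352).

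The multipass translocon, which assists chains with many membrane spans, had 1 of 8 higher and 5 lower in ERM, 0 and 5 in NES and 0 and 2 in LMNB1. CCDC47 rose in ERM (0.84 ± 0.11, edgeR adjusted p = 1.43e-06). TMEM147 fell in ERM and LMNB1 (-1.45 ± 0.17 and -0.95 ± 0.27, edgeR adjusted p = 6.31e-07 and 0.0325), and WDR83OS in ERM and NES (-1.44 ± 0.19 and -1.78 ± 0.29, adjusted p = 2.49e-06 and 4.92e-05). TMCO1 fell in LMNB1 (-0.93 ± 0.28, edgeR adjusted p = 0.0429). NOMO2 was lowest in NES (-1.95 ± 0.23, edgeR adjusted p = 1.51e-06), a value that is uncertain because its near-identical copies may share reads.

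The ER membrane protein complex, an insertase for other membrane spans, had 2 of 10 higher and 2 lower in ERM, 2 and 5 in NES and 0 and 1 in LMNB1. MMGT1 rose in ERM and NES and fell in LMNB1 (0.79 ± 0.11, 0.87 ± 0.16 and -1.27 ± 0.28, edgeR adjusted p = 7.07e-06, 0.000187 and 0.0106). EMC8 rose in ERM and NES (0.65 ± 0.13 and 1.02 ± 0.19, edgeR adjusted p = 0.000269 and 0.000186). EMC3 fell in both (-0.59 ± 0.11 and -0.71 ± 0.16, edgeR adjusted p = 0.000157 and 0.00127), EMC4 in ERM (-0.68 ± 0.16, adjusted p = 0.00134) and EMC10 in NES (-0.70 ± 0.21, adjusted p = 0.00841).

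Of the genes for tail-anchor insertion, 1 of 7 rose and 1 fell in ERM, 1 and 0 in NES and 0 and 1 in LMNB1. UBL4A rose in ERM and NES and fell in LMNB1 (1.14 ± 0.10, 1.75 ± 0.14 and -0.99 ± 0.18, edgeR adjusted p = 1.28e-08, 2.27e-08 and 0.00419), and BAG6 fell in ERM (-1.35 ± 0.43, adjusted p = 0.0101). Of 12 tail-anchored ER proteins, the class to which SEC61B and SEC61G belong, 6 rose and 3 fell in ERM, 7 and 3 in NES and 0 and 3 in LMNB1. VAPA led with 1.11 ± 0.12 and 1.51 ± 0.17 in ERM and NES (edgeR adjusted p = 1.17e-07 and 5.91e-07), followed by UBE2J2 (0.79 ± 0.11 and 1.04 ± 0.16, adjusted p = 3.64e-06 and 1.87e-05). CYB5A fell in ERM and NES (-1.55 ± 0.18 and -1.13 ± 0.25, edgeR adjusted p = 4.37e-07 and 0.00098). EMD fell in ERM, NES and LMNB1 (-1.37 ± 0.15, -1.15 ± 0.21 and -1.16 ± 0.20, edgeR adjusted p = 1.77e-07, 0.000131 and 0.00315), and UBE2J1 in LMNB1 (-1.17 ± 0.31, adjusted p = 0.0265).

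Of 6 tested luminal partners, 3 rose and 1 fell in both ERM and NES, and 0 passed in LMNB1, where 1 had an unadjusted p under 0.05 and DESeq2 called 0. Their median was 0.74 in ERM (-0.15 to 1.06 over the alternatives) and 0.24 in NES. HSPA5, which encodes BiP, rose, at 1.72 ± 0.12 in ERM (edgeR adjusted p = 1.03e-09). DNAJC3, a cochaperone of BiP, rose in ERM and NES (1.59 ± 0.16 and 1.31 ± 0.23, edgeR adjusted p = 7.49e-08 and 7.93e-05), and DNAJB9 led in NES (1.56 ± 0.17, adjusted p = 6.09e-07). DNAJC1 fell in ERM (-0.34 ± 0.13, edgeR adjusted p = 0.0293) and DNAJB11 in NES (-0.86 ± 0.23, adjusted p = 0.0038).

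Of 9 genes of the unfolded protein response, 7 rose and 1 fell in ERM (median 0.98) and 6 and 1 in NES (median 0.92). SEL1L was the next after XBP1 in ERM (1.18 ± 0.14, edgeR adjusted p = 4.38e-07) and DDIT3 in NES (1.09 ± 0.45, adjusted p = 0.0476). XBP1, a transcription factor of the response, rose by 1.63 ± 0.11 and 1.60 ± 0.16 (edgeR adjusted p = 1.46e-09 and 2.77e-07), and CRELD2 fell, at -0.77 ± 0.18 and -1.42 ± 0.26 (edgeR adjusted p = 0.000964 and 0.000175). In the LMNB1 s6G arm 0 of the 9 passed in edgeR, where 2 had an unadjusted p under 0.05, and DESeq2 called 1 higher. The part of the stress seen in ATF3 in these values was not tested.

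SEC61A1 was also set beside all genes by its pattern over the 9 arms, as the root mean square difference of log2 fold changes, among 8363 genes tested in all fits whose mean log2 CPM reached 4. The closest were MFSD12 (0.19), CLEC16A (0.21), DCAF15 (0.21), CTDNEP1 (0.21) and PIGS (0.22). MFSD12 and SEC61A1 had 0.08 and 0.19 in ERM and -0.81 and -0.64 in NES. CLEC16A (-0.17), DCAF15 (-0.3), CTDNEP1 (-0.24) and PIGS (-0.32) were also below 0 in ERM, unlike SEC61A1. No other member was near: SRPRB ranked 2010 (0.57), SEC61A2 3520 (0.69), TRAM1 5002 (0.81), SEC61B 5079 (0.82), SEC63 5661 (0.87), SEC62 6459 (0.95) and SEC61G 7949 (1.21).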

How the data were processed

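The authors deposited gene counts (whole reads, not normalized) for 40 libraries, which the submitters' processing notes assign to HISAT2 2.1.0, SAMtools and HTSeq 0.7.2 on GRCh38/hg38, with deepTools 2.5.3 and DESeq2 also named. No source used here gives the annotation or strand setting: reads of genes that overlap, or lie antisense, may be shared. The authors also deposited log2(TPM + 1) of the MITO groups, from which TPM was computed and scaled to a column sum of 1000000 from 2000000, and log2 fold changes with a p-value for ERM over NES and for LMNB1, whose reference groups the sources used here do not state. A mean normalized signal per gene (baseMean) stands in the authors' ERM table and was not used here.

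Libraries were grouped by title. MITO, ERM with NES, and LMNB1 each had a group-means model in edgeR 4.0.16 (R 4.3.3), with TMM scaling, the default filter and the robust quasi-likelihood test. Adjustment was by Benjamini-Hochberg over all tested genes, and calls were made at 0.05. The fits were also run on simulated counts with the same spread for all genes and no pairing. That run cannot show how the fits handle pairing or the sets of ERM replicates. P-values weigh a difference against the spread between libraries, which the groups of a fit share and which the main fits take without pairing. Intervals are nominal 95% intervals. CPM were scaled by TMM within a fit, or over all 40 libraries where inputs of constructs are compared. Per the labels' protocols enriched RNA came from the inputs, so an input and an enriched library with equal numbers in their titles were paired. Their deviations correlated with r of 0.15 to 0.22 in ERM, 0.20 in NES, 0.47 to 0.61 in labelled MITO arms, 0.35 to 0.51 in labelled LMNB1 arms and 0.04 to 0.10 in unlabelled arms. The replicate block was an alternative, as were other scalings and filters, DESeq2 1.42.0 and leaving out libraries.

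The members and the lists were chosen with earlier results of these data known. Text names every member, from each pathway list the called genes with the 2 largest rises and 2 largest falls in the ERM, NES and LMNB1 s6G arms, and the 5 genes closest to SEC61A1.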

Additional observations from a re-analysis of the deposited data

Results flagged for a closer look

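In 6 of 24 comparisons of a member between 2 arms, every pair of enriched and input libraries pointed one way in the first arm and the opposite way in the second. The difference was not tested in any of the 6, since the members were chosen with enrichment known. The ERM minus NES calls in the report are a description for the same reason. How many of all genes meet this rule was not counted, so 6 of 24 cannot be called many or few. In NES s6G alone, the groups of 40.1% of all tested genes did not overlap with enriched higher, and of 39.5% with enriched lower. Values are log2 of enriched over input. SEC61A1 ran from 0.14 to 0.27 over the 4 ERM s6G pairs and from -0.72 to -0.53 over the 2 NES s6G pairs, and the medians differed by 0.81. SEC61B ran from 0.94 to 1.16 in ERM s6G and from -1.0 to -0.95 in NES s6G, a difference of 2.06, with reads of the construct not told apart. SEC61G ran from -1.10 to -0.91 in LMNB1 s6G and from 0.07 to 0.54 in LMNB1 APEX-only, a difference of -1.31. SEC62 was at -0.07 in both LMNB1 s6G pairs and at 0.33 and 0.67 in APEX-only (difference -0.57). SEC63 was at -0.20 and -0.06 against 0.11 and 0.26 (difference -0.32). SRPRB was at 0.16 and 0.32 in MITO s6G and at -0.42 and -0.20 in MITO APEX-only, a difference of 0.55. No single library stood apart from its group in the 16 ERM groups of 4 checked for the members. This check looks for 1 end value and cannot find a split of 2 against 2, such as that of the ERM numbers given above.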

How the results depend on the processing

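Alternatives were fixed with earlier results known; the 2 splits of the ERM numbers were added after seeing the data. In the ERM and NES arms, the 7 and 8 called members kept their direction under all alternatives, and leave-one-out fits called 7 and 6 to 8. The LMNB1 s6G arm had 3394 genes called with only the compared libraries. There 2 members were called with that setting, with no filter, with a stricter filter and with DESeq2, and 784 to 1176 genes without single replicates. Gene calls in MITO s6G enrichment were 2815 with total-count scaling, 81 with no filter, 84 with a stricter filter, 600 with DESeq2, 0 with only the compared libraries and 13 to 50 without single replicates. Members called there were 1 with total counts and 1 with DESeq2. For ERM minus NES, 240 genes and 3 members were called with total counts, 104 genes with no filter, 11 with a stricter filter, and 472 genes and 2 members with DESeq2. ERM numbers 1 and 2 gave 778 genes and 2 members, and numbers 3 and 4 gave 1482 and 4. Leaving out single replicates gave 0 to 9 genes and 0 to 1 members. The causes were not tested, except that leave-one-out fits have fewer libraries.

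With the replicate block for the pairing of enriched and input, 3 members and 3126 genes were called in LMNB1 s6G. In MITO s6G it called 3 members and 1033 genes, and in ERM minus NES 3 members and 952 genes. It changed 1 other call of a member, SEC61A1 in ERM. Inputs of different arms share only a number. Deviations correlated at -0.37 and -0.53 in MITO and 0.43 in LMNB1, and a replicate block on numbers called 45 genes (MITO s6G), and 4355 genes and 4 members (LMNB1 s6G), all higher: SEC61A2, SEC61B, SEC61G and TRAM1.

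For the inputs, MITO s6G had 0 (total counts), 60 (no filter), 5 (stricter), 181 (DESeq2), 2 (only compared) and 0 to 1 genes called (leave-one-out). MITO s4U had 6 with no filter and 53 with DESeq2. LMNB1 s6G had 9 (total counts), 207 (no filter), 290 (DESeq2), 4 (only compared) and 1 to 2 (leave-one-out). Input differences near 0 changed sign. In MITO s6G these were SEC61A1 (0.01 with RLE, DESeq2 and the block, 0.03 with a stricter filter), SEC63 (-0.17 with total counts, -0.08 with no filter) and TRAM1 (0.01 with a stricter filter), and in LMNB1 s6G SEC63 (0.01 with no filter). Leaving out single replicates, the ranges that crossed 0 in MITO s6G were SEC61A1 -0.42 to 0.49, SEC61A2 -0.03 to 0.91, SEC62 -0.55 to 0.16, SEC63 -0.10 to 0.09, SRPRB -0.34 to 0.82 and TRAM1 -0.23 to 0.11. In MITO s4U they were SEC61A1 -0.35 to 0.65, SEC61G -0.01 to 0.55, SEC62 -0.59 to 0.12, SRPRB -0.20 to 1.03 and TRAM1 -0.27 to 0.06. In LMNB1 s6G they were SEC61A1 -0.21 to 0.25, SEC62 -0.17 to 0.44, SEC63 -0.02 to 0.06 and SRPRB -0.11 to 0.64. No such value was called.

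Most groups held 2 libraries. Some differences of over 3 SE were not called after adjustment over all genes (SEC61A1 ERM minus NES 0.83 ± 0.19, SEC63 in MITO s6G 0.97 ± 0.30), and the reason was not tested. Fewer RNA molecules near a construct and less RNA in the cell cannot be told apart without the inputs. The fold changes of enriched over input use these inputs. New and old RNA cannot be told apart in the enriched libraries. In the unlabelled MITO arm, few reads limit every value.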
